A study of Rattus norvegicus with 16 samples.

Results

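The transcripts followed here are those of 10 genes of the enteroendocrine system of the rat colon: the hormone precursors Gcg, Pyy, Sct, Sst and Cck, the serotonin-synthesising enzyme Tph1, the granule proteins Chga and Chgb, and the receptors Gcgr and Sstr2. A gene was taken as measured where the RefSeq transcript named for a probe belonged to it, which held for 9 of the 10 genes and 12 probes, out of 15159 genes named on the arrays. Sct, the secretin precursor, had no such probe and is not analysed here. The choice of genes used earlier results of these arrays. Gcgr was selected on its measured fall after dextran sodium sulfate (DSS) over both genotypes, and Sstr2 was selected on its low level in Pirc rats over both treatments. Those differences are therefore given as descriptions without a test.

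The arrays measured total RNA of normal distal colon from 16 male (ACIxF344)F1 rats, 4 in each of 4 groups, with 1 array per rat. Rats were either Apc wild type (called wildtype here) or Pirc/+, that is, heterozygous for the Pirc allele of the tumor suppressor gene Apc. The allele is carried in the germline, so every cell of a Pirc rat has it, and such rats develop colonic adenomas. Of each genotype, 4 rats were untreated and 4 drank water with 4% DSS, a polymer that injures and inflames the colonic lining, from day 40 to day 47 and again from day 54 to day 61 of age. All rats were 97 days old at dissection, 36 days after the last DSS. The question was how the treatment and the Apc genotype alter transcripts in tissue that is not adenoma.

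Enteroendocrine cells are scattered, hormone-secreting cells of the gut epithelium that sense the lumen and release peptides or serotonin from dense-core granules. In the distal colon the L cells make proglucagon products and peptide YY, the D cells make somatostatin, and the enterochromaffin cells make serotonin, while the chromogranins package the granules of many of these types. Somatostatin restrains secretion through receptors that lower cyclic AMP, such as Sstr2, whereas the glucagon receptor Gcgr raises it. In tissue of mixed cells, fewer cells of a type and less RNA per cell cannot be told apart.

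A level below is the log2 of the signal of a probe divided by the 75th percentile of the signals of that array, so a level of 0 lies at that percentile and a difference of 1 is a factor of 2. Levels of different probes were not compared with each other. The 75th percentile ran from 875.4 to 2194 signal units over the arrays, the share of spots well above background was 71.1% to 80.3%, and precision is limited by how many arrays there were. The 9 measured genes passed that background criterion on each of the 16 arrays. Markers of colonic epithelium were present, with 14 of 15 listed genes measured and all 14 well above background on every array. Since the 4 rats of a group all lay in the same array column, a column effect cannot be told apart from a group effect, while each of the 2 slides and each of the 2 array rows held 2 rats of every group.

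Sst and Sstr2, a hormone and its receptor, both fell after DSS on average over both genotypes, and Gcgr was the gene chosen for its fall. The regions around the start of these genes are shown because 2 of the 3 hold a full cAMP response element, the letters TGACGTCA, bound by factors that act downstream of cyclic AMP. They were thus chosen with the matches known, and a part of cyclic AMP in the falls was not tested. The sequences are RefSeq's on build GRCr8, 250 bases before to 50 bases after the start of the gene, on the strand of the gene, with TGACGTCA in capitals. The windows are chr11:90461296-90461595 on the plus strand for Sst, chr10:99163103-99163402 on the plus strand for Sstr2 and chr10:106306553-106306852 on the plus strand for the first of 2 Gcgr entries.
Sst: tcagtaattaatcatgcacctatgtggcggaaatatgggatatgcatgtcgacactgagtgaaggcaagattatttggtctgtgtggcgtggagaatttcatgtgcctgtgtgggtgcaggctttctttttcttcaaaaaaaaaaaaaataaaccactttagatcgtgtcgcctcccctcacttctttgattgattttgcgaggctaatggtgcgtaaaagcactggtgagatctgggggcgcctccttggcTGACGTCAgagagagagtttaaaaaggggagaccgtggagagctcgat
Sstr2: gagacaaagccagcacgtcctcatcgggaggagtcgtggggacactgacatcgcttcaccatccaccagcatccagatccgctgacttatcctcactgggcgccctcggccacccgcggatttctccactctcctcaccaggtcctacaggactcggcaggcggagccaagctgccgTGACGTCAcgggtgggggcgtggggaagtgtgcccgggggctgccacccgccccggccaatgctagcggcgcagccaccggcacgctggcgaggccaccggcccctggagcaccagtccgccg
Gcgr: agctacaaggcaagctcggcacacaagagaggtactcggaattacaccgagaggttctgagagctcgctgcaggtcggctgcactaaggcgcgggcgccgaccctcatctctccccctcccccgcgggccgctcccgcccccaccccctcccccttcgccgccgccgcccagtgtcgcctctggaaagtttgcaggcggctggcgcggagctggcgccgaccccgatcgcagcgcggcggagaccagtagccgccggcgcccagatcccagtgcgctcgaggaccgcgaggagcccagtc
The element starts 73 bases before the annotated start in Sstr2 and at position 2 relative to it in Sst. Searched on both strands, TGACGTCA occurred in 1.83% of 33469 windows of the same length, and its shorter core TGACG, which the full element contains, in 21.2%. Of the 8 windows found for 7 of the genes, those of Gcg, Pyy, Chgb, Tph1 and Gcgr did not hold these letters, and the table has no window for Chga or Cck. A match is a description of the letters and not a bound site.

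**Figure D1:**
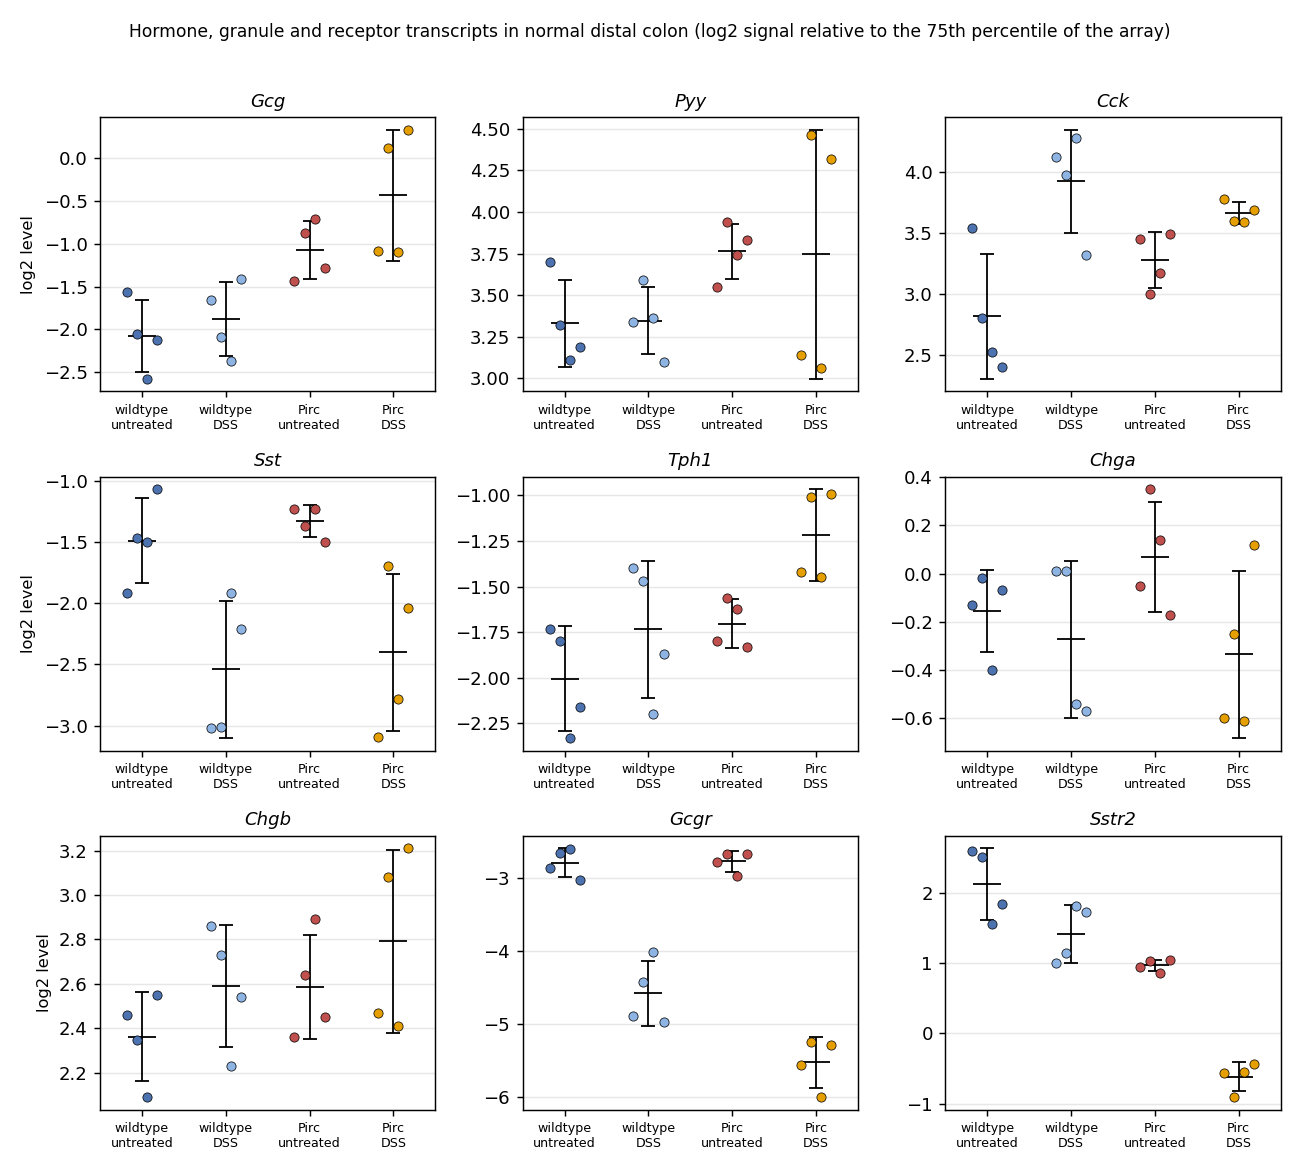
Log2 level of each of the 9 measured genes (vertical axis, relative to the 75th percentile of the array, each panel with its own scale) in the 4 groups of 4 rats. Points are rats, horizontal bars are group means and whiskers are 1 SD. Gcg was higher in every Pirc rat than in any wildtype rat of the same treatment, Sst was lower in both DSS groups on average, and Gcgr and Sstr2 were lowest in DSS-treated Pirc rats.

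Gcg, the precursor of glucagon-like peptide 1 and the other proglucagon peptides of L cells, was, among the 7 measured hormone and granule genes, each on its brighter probe, the one that passed the test between Apc genotypes. Its levels were -1.56, -2.05, -2.58 and -2.12 in untreated wildtype rats, -1.66, -2.09, -2.37 and -1.41 in DSS-treated wildtype rats, -1.43, -0.87, -0.71 and -1.28 in untreated Pirc rats, and -1.09, 0.12, -1.10 and 0.33 in DSS-treated Pirc rats. Within each treatment no Pirc rat overlapped a wildtype rat, and in the DSS-treated Pirc rats 2 lay near 0 and 2 near the untreated Pirc rats. Over both treatments Gcg was 2.34-fold higher in Pirc rats, a log2 difference of 1.23 ± 0.24 (SE, n = 8 rats per genotype, limma adjusted p = 0.00454). Among DSS-treated rats the log2 difference was 1.45 ± 0.34 (adjusted p = 0.0105), and among untreated rats it was 1.0 ± 0.34, which did not pass the test (adjusted p = 0.326). Fitted on the DSS-treated groups alone, the first of these no longer passed (adjusted p = 0.0582). The Gcg difference between genotypes was 1.02 and 1.43 within the 2 slides and 0.96 and 1.49 within the 2 array rows.

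Over both treatments, 1 of the 7 measured hormone and granule genes differed between Pirc and wildtype rats, against 17.5% of all 30367 probes (9.26% higher and 8.27% lower). The same single gene, Gcg, passed among DSS-treated rats, where 18.2% of all probes passed (9.47% higher and 8.76% lower). Among untreated rats none of the 7 passed with limma, as was true of all probes (0%), with 1 of the 7, Gcg, and 3103 of all probes at an unadjusted p under 0.05. The median log2 difference of the 7 genes was 0.21 over both treatments, beside -0.06 over all probes.

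Pyy, the peptide YY precursor that L cells make together with Gcg, did not pass any comparison. Its levels ran from 3.11 to 3.7 in untreated wildtype rats, from 3.1 to 3.59 in DSS-treated wildtype rats and from 3.55 to 3.94 in untreated Pirc rats. In the DSS-treated Pirc rats 12, 16, 20 and 24 they were 3.14, 4.46, 3.06 and 4.32, so that 2 rats lay above every other rat and 2 near the bottom of the wildtype range. The log2 difference between genotypes was 0.42 ± 0.20 (95% interval -0.01 to 0.84, adjusted p = 0.169). A second Pyy probe gave 0.88 ± 0.32 (adjusted p = 0.0701), and it was low in DSS-treated wildtype rat 22 (-0.27) where the first probe was not (3.36).

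Sst, the somatostatin precursor of D cells, fell after DSS. Its levels were -1.92, -1.47, -1.5 and -1.07 in untreated and -3.02, -3.01, -1.92 and -2.21 in DSS-treated wildtype rats, and -1.23, -1.37, -1.23 and -1.5 in untreated and -3.09, -1.70, -2.78 and -2.04 in DSS-treated Pirc rats. The Pirc groups did not overlap, and the wildtype groups met at -1.92. Over both genotypes Sst was 2.08-fold lower after DSS, a log2 difference of -1.06 ± 0.22 (SE, n = 8 rats per treatment, limma adjusted p = 0.00371). The fall was of like size in Pirc rats (-1.07 ± 0.31, adjusted p = 0.0318) and in wildtype rats (-1.05 ± 0.31, adjusted p = 0.0792), and the difference between the falls was -0.03 with a 95% interval of -0.96 to 0.91. The call in Pirc rats alone was lost without any 1 of Pirc rats 11, 12, 15, 19 or 20, with log2 differences of -1.04, -0.84, -1.09, -1.04 and -0.95 in that order. Over both genotypes the fall was -1.21 and -0.91 within the slides and -1.23 and -0.89 within the array rows, whereas in Pirc rats it was -1.71 in array row 1 and -0.44 in array row 2.

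Cck, the cholecystokinin precursor, moved the other way. Its levels were 3.54, 2.80, 2.52 and 2.4 in untreated and 4.12, 3.97, 4.28 and 3.32 in DSS-treated wildtype rats, and 3.45, 3.0, 3.17 and 3.49 in untreated and 3.78, 3.60, 3.59 and 3.69 in DSS-treated Pirc rats. Untreated wildtype rat 13 was the only untreated wildtype rat above a DSS-treated one, and the Pirc groups did not overlap. Over both genotypes Cck was 1.68-fold higher after DSS, a log2 difference of 0.75 ± 0.17 (limma adjusted p = 0.0071). The rise was 1.10 ± 0.24 in wildtype rats (adjusted p = 0.021) and 0.39 ± 0.24 in Pirc rats (adjusted p = 0.342), and the difference between these (-0.72, 95% interval -1.45 to 0.02) did not pass (adjusted p = 0.481). The call in wildtype rats alone was lost without any 1 of wildtype rats 14, 17, 18, 21 or 25, where the log2 difference was 0.97 to 1.10. Within slides the rise over both genotypes was 0.67 and 0.82, and within array rows it was 0.77 and 0.72.

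Over both genotypes, 2 of the 7 hormone and granule genes passed the test of the DSS effect, Sst lower and Cck higher, against 17.2% of all probes (10.2% higher and 6.99% lower). In Pirc rats 1 of 7 passed (Sst), against 14.7% of all probes (8.14% higher and 6.51% lower). In wildtype rats 1 of 7 passed (Cck), against 3.84% of all probes (2.94% higher and 0.899% lower). None of the 7 passed the test of a difference between the DSS effects of the genotypes by limma, none was at an unadjusted p under 0.05, and 0.0428% of all probes passed it. The median log2 difference after DSS over both genotypes was 0.22 for the 7 genes and 0.06 for all probes.

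**Figure D2:**
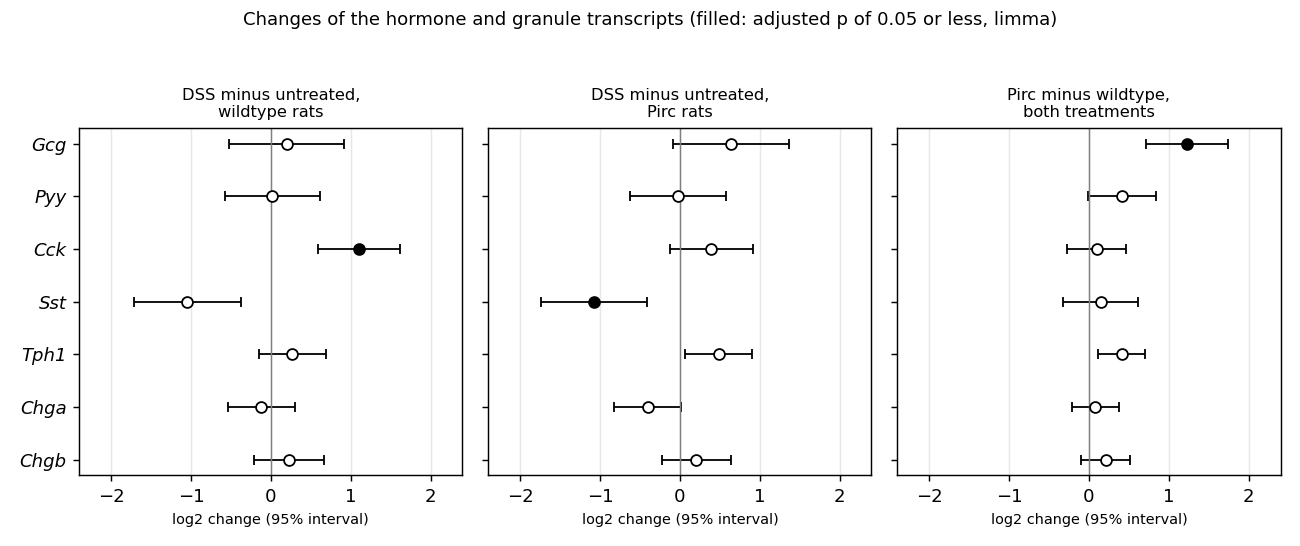
Log2 change (horizontal axis) with its 95% interval from limma for the 7 measured hormone and granule genes, as DSS minus untreated in wildtype rats, DSS minus untreated in Pirc rats, and Pirc minus wildtype over both treatments. Filled points have an adjusted p of 0.05 or less, which were Cck in wildtype rats, Sst in Pirc rats and Gcg between the genotypes.

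Tph1, the rate-limiting enzyme of serotonin synthesis in enterochromaffin cells, was highest in DSS-treated Pirc rats, and its probes differed in whether they passed. On the brighter probe its levels ran from -2.33 to -1.73, from -2.20 to -1.40 and from -1.83 to -1.56 in the untreated wildtype, DSS-treated wildtype and untreated Pirc rats, and from -1.45 to -0.99 in DSS-treated Pirc rats. The DSS-treated Pirc rats did not overlap untreated rats of either genotype but overlapped the DSS-treated wildtype rats. The log2 difference after DSS over both genotypes was 0.38 ± 0.14 (limma adjusted p = 0.0762), and that between Pirc and wildtype rats was 0.41 ± 0.14 (adjusted p = 0.0542). The dimmer probe gave 0.90 ± 0.14 after DSS (adjusted p = 0.000511) and 0.56 ± 0.14 between genotypes (adjusted p = 0.0147), and on it the DSS-treated Pirc rats (-3.41 to -2.61) lay above all other rats.

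Chga and Chgb, the chromogranins that pack hormones into granules and mark enteroendocrine cells as a class, did not pass any of the 7 comparisons. Chga ran from -0.61 to 0.35 over the 16 rats, and its log2 difference after DSS over both genotypes was -0.26 (95% interval -0.56 to 0.04). Chgb ran from 2.09 to 3.21, with a log2 difference after DSS of 0.22 (95% interval -0.09 to 0.53). Between Pirc and wildtype rats the differences were 0.08 (95% interval -0.21 to 0.38) for Chga and 0.21 (95% interval -0.10 to 0.52) for Chgb. The intervals of these 4 differences lay within a factor of 2 in either direction.

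Gcgr, the glucagon receptor, was spotted 10 times on each array. Its levels were -2.87, -2.66, -2.61 and -3.03 in untreated and -4.89, -4.43, -4.02 and -4.97 in DSS-treated wildtype rats, and -2.78, -2.67, -2.98 and -2.67 in untreated and -5.56, -5.24, -6.0 and -5.29 in DSS-treated Pirc rats. Untreated rats of both genotypes overlapped, every DSS-treated rat lay below them, and the DSS-treated Pirc rats lay below the DSS-treated wildtype rats. The log2 differences after DSS, described here without a test, were -1.79 in wildtype rats (3.45-fold lower) and -2.74 in Pirc rats (6.70-fold lower). They were -2.28 and -2.25 over both genotypes within the slides. With normexp background correction and quantile normalization together, the differences in wildtype and Pirc rats were -1.20 and -1.55. The group medians of the Gcgr signal after DSS were 45.7 and 30.9 signal units in wildtype and Pirc rats, against 207 and 272 without DSS. The 10 spots of an array differed by an SD of 0.05 to 0.24.

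The genotype contrast did not serve to choose Gcgr. Over both treatments Gcgr was lower in Pirc rats by a log2 difference of -0.47 ± 0.15 (limma adjusted p = 0.0468), which was 0.01 in untreated and -0.94 in DSS-treated rats. This call was lost in 15 of the 26 alternative analyses, with the log2 difference between -0.53 and -0.20 over all of them. The difference between the DSS effects of the genotypes, -0.96 ± 0.30, did not pass (adjusted p = 0.299).

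Sstr2, a somatostatin receptor found on epithelial and endocrine cells, was lowest where Pirc and DSS met. Its levels were 2.60, 2.51, 1.56 and 1.84 in untreated and 1.0, 1.14, 1.82 and 1.73 in DSS-treated wildtype rats, and 0.94, 1.03, 0.86 and 1.04 in untreated and -0.57, -0.91, -0.55 and -0.43 in DSS-treated Pirc rats. The wildtype groups overlapped each other, untreated Pirc rats met the DSS-treated wildtype rats at 1.0 to 1.04, and the DSS-treated Pirc rats lay below all others. The genotype differences that led to its choice were -1.16 in untreated and -2.04 in DSS-treated rats, described without a test. The DSS effect, which did not serve to choose it, was -1.14 ± 0.17 over both genotypes, 2.21-fold lower (limma adjusted p = 0.000294). In Pirc rats it was -1.58 ± 0.24 (adjusted p = 0.000593), and in wildtype rats -0.70 ± 0.24, which did not pass (adjusted p = 0.127). Within slide 1 the effect over both genotypes was -1.61 and within slide 2 it was -0.68, where wildtype rats showed 0.08 and Pirc rats -1.44. Within array rows it was -1.07 and -1.22. The difference between the DSS effects of the genotypes was -0.88 ± 0.34 and did not pass (adjusted p = 0.375), and a second Sstr2 probe gave the same order of group means and a DSS effect of -1.08 ± 0.19 (adjusted p = 0.00113).

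Markers of other cell types moved with the groups in which Gcgr and Sstr2 were lowest, and their part in the results above was not tested. Summed over the measured genes of a list, as signal divided by the 75th percentile of the array, 8 squamous epithelial genes stood at 3.23 to 4.46 in untreated rats, at 6.48, 8.27, 37.5 and 4.21 in DSS-treated wildtype rats 14, 18, 22 and 26, and at 15.5 to 70.1 in DSS-treated Pirc rats. Of these 8 genes, 6 rose after DSS over both genotypes and none fell, beside 10.2% of all probes higher and 6.99% lower, with a median log2 difference of 4.04. Gcgr levels in DSS-treated wildtype rats 14, 18, 22 and 26 were -4.89, -4.43, -4.02 and -4.97. Rat 26, with a squamous sum in the range of untreated rats (4.21), also differed in its sum of 7 smooth muscle genes. That sum was 14 in rat 26 and 3.26 to 3.56 in the other DSS-treated wildtype rats. It was 3.92 to 9.29 in untreated wildtype rats, with the 9.29 in rat 25. In Pirc rats it was 3.21 to 3.51 without DSS and 2.59 to 5.66 with it. Any link of these sums to Gcgr was not tested. The sum of 8 macrophage genes was 3.22 to 5.45 in untreated and 7.14 to 20.9 in DSS-treated rats, and 7 of the 8 rose over both genotypes, beside the same 10.2% of all probes. The sum of 7 neutrophil genes was 0.355 to 1.70 in untreated rats, 0.922 to 4.39 in DSS-treated wildtype rats and 9.17 to 37.7 in DSS-treated Pirc rats. Of these 7 genes 4 were higher after DSS over both genotypes, beside 10.2% of all probes, and 2 were well above background on all 16 arrays. The sum of 14 colonic epithelial genes overlapped among the groups, from 622 to 771 and 686 to 828 in untreated and DSS-treated wildtype rats and from 534 to 749 and 558 to 756 in untreated and DSS-treated Pirc rats. Of those 14 genes 1 fell after DSS over both genotypes, beside 6.99% of all probes, and 6 were lower in Pirc rats over both treatments, beside 8.27% of all probes.

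By Pearson correlation over the 16 rats and 12143 probes, the genes most like Gcgr were Thnsl2 (r = 0.978), Cmahp (0.960) and Klk1 (0.958). Those most like Sstr2 were Vcf1 (0.965), Pgrmc2 (0.959) and Dnaaf8 (0.958), and those most like Gcg were Fxyd3 (0.894), Rab15 (0.876) and Gmds (0.872). These values describe a pattern that the 4 groups share and carry no test.

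The rats of a group were then compared with each other, to see which hormone transcripts rose and fell together from rat to rat apart from the group means. Of 21 pairs of the 7 hormone and granule genes, 4 passed a permutation test within groups (100000 permutations, two-sided, Benjamini-Hochberg over 21 pairs): Chga with Chgb, Chga with Tph1, Chgb with Tph1, and Gcg with Chgb. All 4 correlations were positive. Pairs of other genes on the arrays were not run, so whether such correlations are particular to hormone and granule genes was not tested. Over 16 rats Pearson's r was 0.84 for Chga with Chgb (permutation p = 0.00185, adjusted p = 0.0129), and Spearman's rho was 0.76 (permutation p = 0.00915, adjusted p = 0.0568). For Chga with Tph1 r was 0.83 (permutation p = 0.00122, adjusted p = 0.0129), with rho 0.75 (permutation p = 0.0108, adjusted p = 0.0568). For Chgb with Tph1 r was 0.80 (permutation p = 0.00169, adjusted p = 0.0129), with rho 0.73 (permutation p = 0.00575, adjusted p = 0.0568). For Gcg with Chgb r was 0.85 (permutation p = 0.00459, adjusted p = 0.0241), with rho 0.83 (permutation p = 0.0075, adjusted p = 0.0568). No pair passed by rank after adjustment.

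Gcg and Pyy, both products of L cells, correlated at r = 0.74 (permutation p = 0.0762, adjusted p = 0.16) and rho = 0.64 (permutation p = 0.111, adjusted p = 0.232), which did not pass. Without the 2 rats farthest from the median of Gcg, r was 0.61, and without the DSS-treated Pirc rats it was 0.29 over 12 rats, so that much of the relation rested on that group. The 4 pairs that passed kept r at 0.84, 0.85, 0.78 and 0.78 without the 2 farthest rats, in the order given above, and at 0.76, 0.82, 0.76 and 0.69 without the DSS-treated Pirc rats. Recentred within each slide, r of the 4 pairs was 0.83 to 0.99. Within array row 1 it was 0.90 to 0.98, and within array row 2 it was 0.81 for Chga with Chgb, 0.76 for Chga with Tph1, 0.28 for Chgb with Tph1, -0.16 for Gcg with Chgb and -0.70 for Gcg with Pyy. A slide or row holds 2 rats of each group, whose deviations mirror each other, so these 8 points carry only 4 separate differences. Sst and Cck did not pass with any of the other genes, and r of Sst with Chga was 0.02.

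Among the DSS-treated Pirc rats the array row went with the level of several hormones. Rats 16 and 24, in array row 2, exceeded rats 12 and 20, in array row 1, by a mean log2 difference of 1.32 in Gcg, 1.29 in Pyy, 1.06 in Sst and 0.71 in Chgb, but by -0.04 in Cck. In the other 3 groups the same row difference in Gcg lay between -0.01 and 0.27. The comparison is of 2 rats with 2, was noticed after the values were seen and has no test, and row and rat cannot be told apart.

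**Figure D3:**
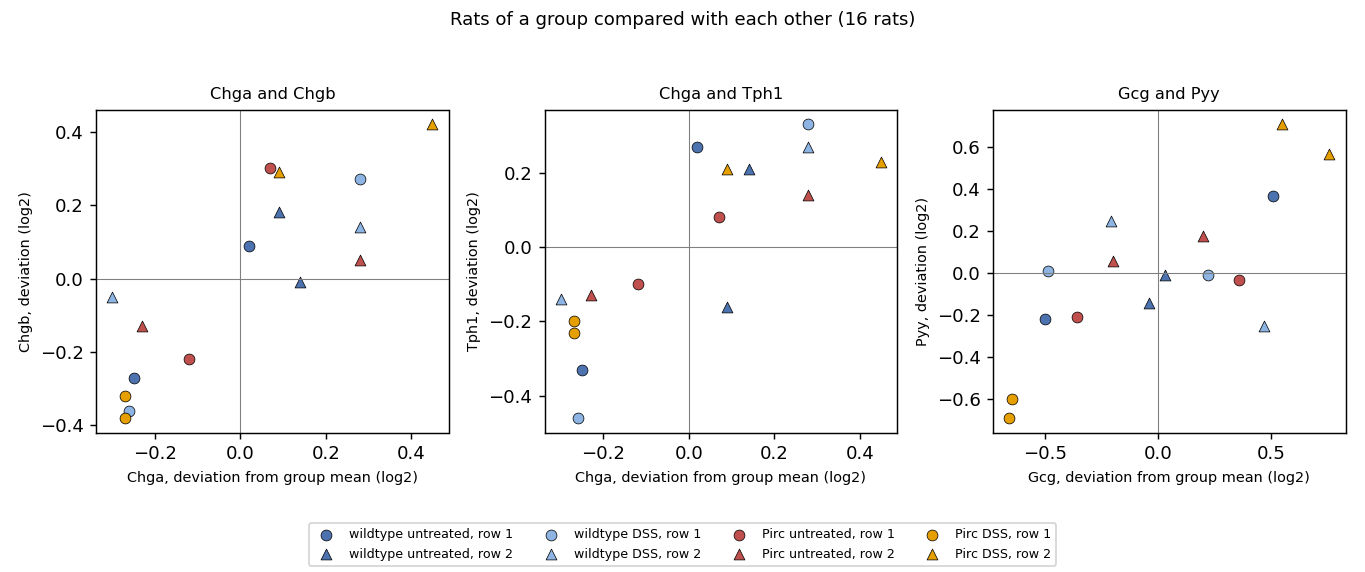
Deviation of each of the 16 rats from its group mean (log2) for Chga against Chgb, Chga against Tph1 and Gcg against Pyy. Colours are groups, circles are array row 1 and triangles array row 2. The points of the first 2 panels rise together (r = 0.84 and 0.83), while in the third the DSS-treated Pirc rats form the ends of the relation (r = 0.74 with them and 0.29 without).

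Other peptides made by enteroendocrine cells or gut neurons were also examined, with 11 of 13 listed genes measured and 4 well above background on all 16 arrays. After DSS over both genotypes 3 of the 11 rose (Tac1, Npw and Gip) and none fell, beside 10.2% of all probes higher and 6.99% lower. Over both treatments 2 were higher in Pirc than in wildtype rats and none lower, beside 9.26% of all probes higher and 8.27% lower. The median log2 difference of the list was 0.63 after DSS and 0.17 between genotypes.

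Tac1, the precursor of substance P and neurokinin A, which enteric neurons and some enterochromaffin cells make, rose steeply after DSS in Pirc rats and not in wildtype rats. Its levels were -6.12, -6.37, -5.98 and -6.59 in untreated and -6.35, -6.26, -6.73 and -6.63 in DSS-treated wildtype rats, and -4.61, -5.09, -4.56 and -4.53 in untreated and 0.43, 1.89, 1.45 and 1.18 in DSS-treated Pirc rats. Every DSS-treated Pirc rat lay above all other rats, and in each wildtype group 3 of 4 arrays had Tac1 well above background. In Pirc rats the log2 difference after DSS was 5.93 ± 0.26, 61.1-fold (limma adjusted p = 2.11e-08), and in wildtype rats it was -0.23 ± 0.26 (adjusted p = 0.754). The difference between these effects, 6.16 ± 0.36, passed its own test (adjusted p = 1.61e-06), and among the genes of all lists examined here Tac1 was the only one that passed it. Among untreated rats Tac1 was higher in Pirc rats by 1.57 ± 0.26 without passing (adjusted p = 0.169). Within slides the rise in Pirc rats was 6.0 and 5.86, and within array rows it was 5.53 and 6.34. The summed level of 11 enteric neuron markers, of which 4 were well above background on all 16 arrays, was 0.159 to 0.196 in untreated and 0.205 to 0.340 in DSS-treated Pirc rats, and 0.177 to 0.226 in untreated and 0.226 to 0.392 in DSS-treated wildtype rats. After DSS over both genotypes 3 of these 11 markers were higher and 1 was lower, beside 10.2% and 6.99% of all probes. The neuronal ubiquitin hydrolase Uchl1, chosen after its values were seen, had a mean level of -6.24 in untreated and -4.03 in DSS-treated Pirc rats, and of -5.75 and -5.82 in wildtype rats. The other markers that passed had other patterns. Stmn2 went from -4.80 to -3.70 in Pirc and from -5.24 to -3.09 in wildtype rats. Tubb3 went from -5.30 to -4.67 and from -5.39 to -4.88, and Ret fell from -4.62 to -5.89 and from -3.87 to -4.63, in the same order of genotypes. The part of neurons in the Tac1 result was not tested.

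Npw, the neuropeptide W precursor, rose by 1.44 ± 0.24 after DSS over both genotypes (limma adjusted p = 0.000883) and was higher in Pirc rats by 1.22 ± 0.24 (adjusted p = 0.00483). Its levels were -1.30 to 0.32 in DSS-treated Pirc rats and -3.73 to -2.13 in all the others. Gip, the precursor of the incretin GIP, gave 1.04 ± 0.34 after DSS (adjusted p = 0.0463), a call that was lost in 17 of 26 alternative analyses.

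The enzymes that inactivate secreted peptides held 2 falls of more than 3-fold after DSS. Dpp4, the membrane dipeptidase that cleaves glucagon-like peptide 1 and peptide YY, ran from 1.63 to 2.28 in untreated rats of both genotypes, from -0.36 to 1.28 in DSS-treated wildtype rats and from -1.12 to 0.35 in DSS-treated Pirc rats. Over both genotypes it fell by a log2 difference of -1.78 ± 0.25, 3.44-fold lower, with no overlap between treatments in either genotype (limma adjusted p = 0.000185). Anpep, aminopeptidase N, fell by the same log2 difference, -1.78 ± 0.23 (adjusted p = 0.00011), and did so in wildtype rats (-1.67, adjusted p = 0.0113) and in Pirc rats (-1.88, adjusted p = 0.0014). Of the 5 genes of this list 2 fell and 1, Fap, rose after DSS over both genotypes, beside 6.99% of all probes lower and 10.2% higher, where Fap was well above background on 7 of 16 arrays. Ace, angiotensin-converting enzyme, was lower in Pirc rats by -0.70 ± 0.15 (adjusted p = 0.00702).

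Of 15 measured receptors and transducers for nutrients and microbial products, 4 fell after DSS over both genotypes and none rose, beside 6.99% of all probes lower and 10.2% higher. Over both treatments 4 were lower in Pirc rats and none higher, beside 8.27% of all probes lower and 9.26% higher. Casr, the calcium-sensing receptor, ran from -0.51 to 1.48 in the other 3 groups and from -3.55 to -1.56 in DSS-treated Pirc rats. Its log2 difference after DSS was -1.60 ± 0.33 over both genotypes (limma adjusted p = 0.00347), made up of -2.90 in Pirc rats and -0.30 in wildtype rats, whose difference did not pass (adjusted p = 0.199). Gnat3, the taste G protein subunit gustducin, fell by -1.53 ± 0.18 (adjusted p = 6.72e-05), and the olfactory receptor gene Olr59 by -1.29 ± 0.23 (adjusted p = 0.00118). Ffar3, a receptor for short-chain fatty acids, was not well above background on any array of DSS-treated Pirc rats, at least 2.89-fold lower than in untreated Pirc rats (adjusted p = 0.000881). Over both genotypes its log2 difference after DSS was -1.04. It lay between -1.28 and -0.26 over the alternative analyses, and 1 of these lost the call (limma adjusted p = 0.112). Gnat3 also marks tuft cells, and of 6 tuft cell markers 5 fell after DSS over both genotypes, beside 6.99% of all probes. In Pirc rats 5 of the 6 fell, beside 6.51% of all probes, and in wildtype rats none passed, where 0.899% of all probes fell. The summed level of the 6 markers was 0.223 to 0.332 in DSS-treated Pirc rats and 0.404 to 0.587 in all other rats. The part of tuft cells in the Gnat3 result was not tested.

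**Figure D4:**
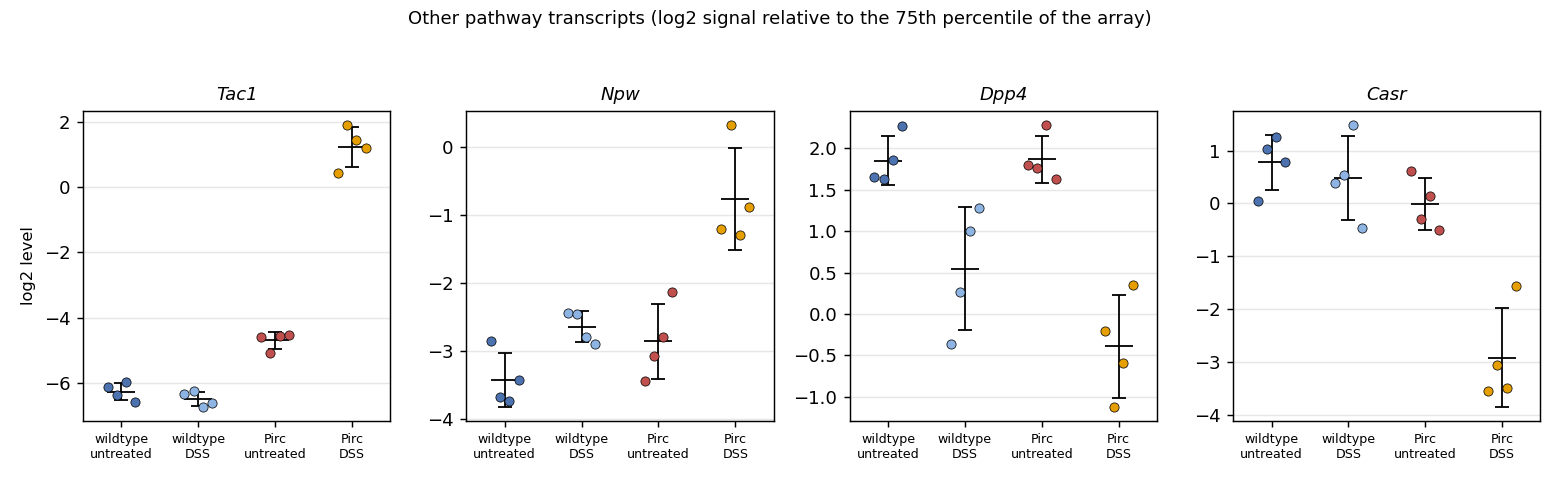
Log2 level (vertical axis, relative to the 75th percentile of the array, each panel with its own scale) of Tac1, Npw, Dpp4 and Casr in the 4 groups of 4 rats. Points are rats, horizontal bars are group means and whiskers are 1 SD. Tac1 and Npw stood highest and Casr lowest in all 4 DSS-treated Pirc rats, and Dpp4 was lower after DSS in both genotypes.

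Among the 27 other hormone and neuropeptide receptors listed and measured, 4 rose and 3 fell after DSS over both genotypes, beside 10.2% of all probes higher and 6.99% lower. In Pirc rats over both treatments 2 were lower and none higher, beside 8.27% of all probes lower and 9.26% higher. Npy1r, a receptor for peptide YY and neuropeptide Y, fell by -1.34 ± 0.24 (limma adjusted p = 0.00116), and its treated and untreated rats did not overlap in either genotype. Sstr1, another somatostatin receptor, gave -0.77 ± 0.25 (adjusted p = 0.0429) and Sstr4 gave 0.72 ± 0.22 (adjusted p = 0.0337), calls that were lost in 12 and 7 of 26 alternative analyses. Htr2b, a serotonin receptor, was not well above background on any untreated array and was at least 2.63-fold higher after DSS in Pirc rats (adjusted p = 0.0114), while in DSS-treated wildtype rats 1 of 4 arrays measured it. Its log2 difference over both genotypes was 0.21 to 1.9 over the alternative analyses and did not pass where low signals were set to a common floor (0.25, adjusted p = 0.5).

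Of 19 measured genes of the machinery that makes and fills granules, 2 were higher and 2 lower after DSS over both genotypes, beside 10.2% of all probes higher and 6.99% lower. Cpe, the carboxypeptidase that trims prohormones, rose by 1.08 ± 0.16 (limma adjusted p = 0.000311), in wildtype rats (0.92, adjusted p = 0.0358) as in Pirc rats (1.24, adjusted p = 0.00215). Vgf, a granule protein, rose by 0.67 ± 0.16 (adjusted p = 0.0102). Pam, which amidates peptide hormones, was lower by -0.58 ± 0.18 after DSS over both genotypes (limma adjusted p = 0.0397, a call lost in 11 of 26 alternative analyses). It was lower by -0.91 ± 0.18 in Pirc rats over both treatments (adjusted p = 0.00483). Mean Pam levels were 0.88 in untreated and 0.87 in DSS-treated wildtype rats, and 0.54 in untreated and -0.61 in DSS-treated Pirc rats. Rimbp2, a partner of the vesicle release machinery, fell by -0.83 ± 0.13 after DSS (adjusted p = 0.000427). In Pirc rats over both treatments 2 of the 19 were higher and 2 lower, beside 9.26% of all probes higher and 8.27% lower. Scg3 was among the higher ones (0.77 ± 0.19, limma adjusted p = 0.0134) and was well above background on 13 of 16 arrays. Of 8 serotonin genes 2 fell and none rose after DSS over both genotypes, beside 6.99% of all probes lower and 10.2% higher. These were the transporter Slc6a4 (-0.47 ± 0.11, limma adjusted p = 0.00922) and the degrading enzyme Maoa (-0.38 ± 0.10, adjusted p = 0.0211). The DSS effect on Slc6a4 was -0.97 in Pirc rats and 0.02 in wildtype rats, whose difference did not pass (adjusted p = 0.139). In Pirc rats over both treatments 1 of the 8, the decarboxylase Ddc, was higher (0.59 ± 0.17, adjusted p = 0.0239) and 1, Slc6a4, was lower (-0.54 ± 0.11, adjusted p = 0.00647). Beside these, 9.26% of all probes were higher and 8.27% lower. Mean Slc6a4 levels were -3.69 in untreated and -3.67 in DSS-treated wildtype rats, and -3.73 in untreated and -4.7 in DSS-treated Pirc rats.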

How the data were processed

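Total RNA of the 16 rats was labelled with Cy3 and hybridised to single-colour Agilent arrays. Per the file headers, the authors deposited the output of Agilent Feature Extraction 10.7.3.1, whose processed signal is an intensity with the background already subtracted, linear and without normalization across arrays, from an array designed on rat build rn4. The submitters' processing notes also name Partek. Of 62976 spots, 4259 controls were left out, and the other 58717 spots belonged to 30367 probes. The log2 of the intensity minus the log2 of its 75th percentile on the array was averaged across a probe's spots that carried no outlier flag (25 probe values had flagged spots alone, which were kept). Probe accessions were matched to RefSeq genes of GRCr8: 18006 probes matched 15159 genes and 12361 did not match. A gene with several probes was represented by the one with the highest mean level.

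One mean per group was fitted to all 16 arrays by the lmFit and eBayes functions of limma 3.58.1 under R 4.3.3, with Benjamini-Hochberg adjustment over all probes. A gene passed the test at an adjusted p of 0.05 or less. P-values for pairs of genes came from permutations within groups (Python 3.11.15, numpy 2.4.6). DSS was compared with no treatment within either genotype and averaged over the pair, Pirc with wildtype likewise by treatment, and the genotypes' DSS effects with each other, which made 7 comparisons. The genes and lists were chosen with earlier results of these data known. Besides the 9 measured genes, those named were up to 4 per list for DSS and 2 for genotype, with the largest change among genes that passed and were well above background on all arrays of at least 1 group, and the 3 genes most like Gcgr, Sstr2 and Gcg. A fold given as "at least" set the brighter group against the higher of the dim probe's own signal and the lowest signal well above background on each array. In simulated arrays of 30367 probes with 200 changed by DSS over both genotypes, 81% of changes of log2 size 1 and 96% of size 2 were recovered, with 6 other calls. The other comparisons were not simulated, and in the data 17.2% of probes passed for DSS over both genotypes, so this recovery does not carry over to them. No pair of arrays was identical (0 pairs). Alternatives were quantile normalization, normexp (offset 50) with quantile normalization, a filter on dim probes, a common floor, slide or array row as a block, flagged spots kept, only the compared groups, a factor of 2, averaged probes and each rat left out. Added after seeing the data were scaling to the median of bright probes and slide with array row as blocks.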

Additional observations from a re-analysis of the deposited data

Results flagged for a closer look

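The DSS effect on Tac1 differed between the genotypes by a log2 difference of 6.16 ± 0.36 in the interaction term of limma (adjusted p = 1.61e-06). It was 4.94 to 6.43 over the alternatives run.

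In groups of 4 rats, a rat was set apart where its gap to the nearest other rat was above Dixon's critical share of the range of the group. This held for 3 of 64 groups checked, where chance gives about 1 in 20 groups (3.2). On the second Sstr2 probe, DSS-treated Pirc rat 24 read -4.56 and the other 3 rats -4.78 to -4.76. On the second Tph1 probe, untreated wildtype rat 25 read -4.35 and the others -4.62 to -4.57. On the Tac1 probe, untreated Pirc rat 15 read -5.09 and the others -4.61 to -4.53.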

How the results depend on the processing

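The DSS effects of Anpep, Cpe, Ffar3, Htr2b and Sstr2 within a genotype, and that of the second Sstr2 probe, were not followed over the alternatives. No other log2 difference reported with a passed test changed direction under any alternative run. Correlations that did not pass did, with r from -0.16 to 0.2 for Chga with Sst, from -0.42 to 0.17 for Gcg with Cck and from -0.4 to 0.05 for Sst with Tph1, and r of Gcg with Chgb was -0.16 within array row 2. The calls over both genotypes or both treatments for Gcg, Sst, Cck, Sstr2 (DSS effect) and Tac1 passed the adjusted p under all of them, but Cck, at 1.68-fold, did not reach a factor of 2, with log2 differences of 1.07 to 1.34 for Gcg, -1.18 to -0.93 for Sst, 0.68 to 0.87 for Cck and -1.24 to -1.07 for Sstr2. The count of hormone and granule genes past the test depended on the setting. For DSS over both genotypes it was 2, 1 with a factor of 2 and 3 (Sst, Cck and Tph1) with dim probes left out, slide as a block, slide and array row as blocks or probes averaged (2 to 3 with each rat left out, and 3 without DSS-treated wildtype rat 22). For DSS in Pirc rats it was 1, 2 with probes averaged and 0 with only the compared groups (0 to 1 with each rat left out). For DSS in wildtype rats it was 1, 2 with normexp and quantile normalization together or without dim probes (Sst and Cck) and 0 with only the compared groups (0 to 2 with each rat left out, and 2 without DSS-treated wildtype rat 22). For the Pirc effect over both treatments it was 1, and 2 (Gcg and Tph1) with that normexp setting, without dim probes, with slide as a block, with slide and array row as blocks or with probes averaged (1 to 2 with each rat left out, and 2 without untreated wildtype rat 13 or DSS-treated wildtype rats 14 or 18). Among DSS-treated rats it was 1, 2 with slide as a block, with slide and array row as blocks or with probes averaged, and 0 with only the compared groups (1 with each rat left out). It stayed at 0 for the Pirc effect among untreated rats and for the difference between DSS effects. The 4 pairs that passed did so under 22 of 26 alternatives for Gcg with Chgb and 25 of 26 for each of the others. Gcg with Pyy passed with r = 0.82 where probes were averaged (permutation adjusted p = 0.0429) and with r = 0.86 without DSS-treated wildtype rat 26 (permutation adjusted p = 0.0464), and r was 0.66 to 0.86 with each rat left out. With normexp and quantile normalization the DSS difference of Gcgr was -1.55 in Pirc rats, -1.20 in wildtype rats and -1.37 over both. The causes of these shifts were not tested, except that fits on only the compared groups hold fewer arrays. No paired analysis was possible because every rat has its own number in the labels and the groups share none.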

Other observations

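Of 13 measured transcription factors of enteroendocrine cells, 1 rose and 2 fell after DSS over both genotypes, beside 10.2% of all probes higher and 6.99% lower, and 1 was lower in Pirc rats over both treatments, beside 8.27% of all probes. Foxa2, a forkhead factor of gut epithelium, fell by -0.83 ± 0.15 after DSS (limma adjusted p = 0.00162) with no overlap between treatments in either genotype, and its difference in Pirc rats was -0.52 ± 0.15 (adjusted p = 0.0293), a call lost in 6 of 26 alternative analyses. Hhex, a homeobox factor of somatostatin cells in the pancreas, gave -1.16 ± 0.35 after DSS (adjusted p = 0.0341), with rats from -2.92 to 0.36. The call for Hhex was lost in 9 of 26 alternative analyses.

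Of 17 measured genes that carry the signal of hormone receptors through cyclic AMP, 3 rose after DSS over both genotypes, beside 10.2% of all probes, and 3 were lower in Pirc rats over both treatments, beside 8.27% of all probes. The regulatory subunits of protein kinase A Prkar2a (0.64 ± 0.16, limma adjusted p = 0.0137) and Prkar1a (0.45 ± 0.08, adjusted p = 0.00134) and the inhibitory G protein subunit Gnai3 (0.26 ± 0.07, adjusted p = 0.0217) were higher after DSS. Gnai2, another inhibitory G protein subunit, was lower in Pirc rats by -0.52 ± 0.08 (adjusted p = 0.00177), and the catalytic subunit Prkaca by -0.27 ± 0.07 (adjusted p = 0.0189).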
